A study of Homo sapiens with 29 samples.

Results

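The genes described here encode 10 thrombospondins and related matricellular proteins: THBS1, THBS2, SPARC, TNC, POSTN, FN1, SPP1, TGFBI, NOV and LUM. They were taken by symbol from the deposited table of raw counts, which lists 60675 genes, and each of the 10 symbols matched a single gene. All 10 passed the filter on low counts, with 20494 genes tested in all. Polyadenylated RNA had been sequenced in 29 libraries of WM239A, a human metastatic melanoma line grown in culture. The BRAF inhibitor LGX818 (encorafenib) was given at 500 nM, without a break or in alternating phases of 7 days on and 7 days off, and the comparisons ask how cells on those schedules differ.

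Vector cells carried an empty vector and got no drug (3 libraries). All other groups were WM239A cells that overexpress BRAF-V600E, a mutant kinase with constant activity that signals through MEK and ERK. These cells were taken untreated (3 libraries), after 20 h on drug (3), and after 7 days on drug, called week 1 (3). The continuous arm was taken on drug at 14, 21 and 28 days, called weeks 2, 3 and 4 (3, 3 and 2 libraries). The intermittent arm was taken off drug in week 2, returned to drug for week 3 and without it once more in week 4 (3 libraries each). Untreated cells were not sampled late in the course, so time in culture and drug cannot be told apart where a late week is set against untreated cells. Nothing in the labels tells if libraries within a group were grown as separate cultures, so p-values measure only the spread between these libraries, which may be technical. The columns of the intermittent week 3 libraries are named as off drug in the count table and as on drug in the sample labels. The labels were followed, and every statement on week 3 back on drug rests on them.

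Matricellular proteins are secreted into the extracellular matrix, where they mostly modulate how cells attach, migrate and respond to growth factors rather than bear load. They bind integrins, CD36, CD47, CD44 and syndecans on the cell surface, and several of them bind or activate TGF-beta. In melanoma, fibronectin, thrombospondin-1, osteopontin, tenascin-C and SPARC are known for their links to invasive and dedifferentiated states.

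Libraries held 22934039 to 35804978 counts, and levels are given as TMM-scaled counts per library total, in the usual CPM. All 8 melanocyte markers that were checked, from MITF to S100B, had counts in every group, and their summed level moved with drug. It was 2408 to 2521 CPM in untreated cells, 8363 to 8503 at 20 h, 891 to 953 at week 1, 353 to 516 later on continuous drug, 438 to 566 back on drug, and 617 to 648 and 989 to 1057 off drug at weeks 2 and 4. Its part in the changes of the 10 genes was not tested. BRAF, the overexpressed gene, stood at 37.6 to 43.2 CPM in vector cells and at 679 to 3495 CPM in every other library. The share of mitochondrial counts ranged from 8.57% to 20.7% and was highest at 20 h. A pair of libraries stood apart from the others of their group, replicate 3 of week 2 on continuous drug and replicate 1 of week 3 back on drug (their counts had a chi-square above 20 per gene against each of the others). FN1, THBS1 and TNC were lowest of their group in both of them. Results that rest on either library are given with and without it where the value changed by over 1.5 times or the call changed.

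Sequence just upstream of the start is shown for 4 members, because THBS1, FN1 and TGFBI had alike patterns across the groups, as shown further on, and POSTN was lower at week 1 than in untreated cells where those 3 were higher. Sequences are from RefSeq (GRCh38.p14), 5′ to 3′ on the strand of the gene, and end at the base before the outermost start annotated in GENCODE 29. They cover chr15:39580829-39581078 (plus strand) for THBS1, chr2:215436173-215436318 (minus strand) for FN1, chr5:136028738-136028894 (plus strand) for TGFBI and chr13:37598845-37599018 (minus strand) for POSTN. Capitals mark matches to the motifs searched, and the FN1 and TGFBI runs hold none.
THBS1: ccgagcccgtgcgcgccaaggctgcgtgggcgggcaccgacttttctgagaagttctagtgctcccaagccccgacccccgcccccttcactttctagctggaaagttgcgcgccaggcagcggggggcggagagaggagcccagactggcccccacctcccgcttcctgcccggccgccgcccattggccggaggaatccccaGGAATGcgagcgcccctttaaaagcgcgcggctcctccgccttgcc
FN1: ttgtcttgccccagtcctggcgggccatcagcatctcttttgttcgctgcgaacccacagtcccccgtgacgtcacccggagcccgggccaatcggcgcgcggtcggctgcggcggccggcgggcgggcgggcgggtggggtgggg
TGFBI: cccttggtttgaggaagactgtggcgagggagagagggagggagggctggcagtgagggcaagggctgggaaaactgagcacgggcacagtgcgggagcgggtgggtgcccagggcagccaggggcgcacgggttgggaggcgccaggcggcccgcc
POSTN: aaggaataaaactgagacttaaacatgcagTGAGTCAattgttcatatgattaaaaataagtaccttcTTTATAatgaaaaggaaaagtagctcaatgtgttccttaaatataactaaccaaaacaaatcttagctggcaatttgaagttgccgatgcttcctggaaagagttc

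The RefSeq promoter table held 8 of the 10 members, all but NOV and LUM, and the 250 bases upstream of each RefSeq start were searched on both strands for 3 motifs. GGAATG, the core bound by TEAD factors, was found in 3 of 8 members, against 11.9% of 35116 promoters of the same length. The matches lay at -46 in THBS1, at -103 and -91 in THBS2 and at -17 in SPARC. TGANTCA, the AP-1 core, was found in 1 of 8, at -220 in POSTN, against 6.57% of promoters. TATAAA, the TATA box, was found in 2 of 8, at -29 in THBS2 and at -182 and -29 in POSTN, against 10.7% of promoters. The capitals in the THBS1 run are its GGAATG match. Those in the POSTN run are the AP-1 match and the TATAAA match at -182, which is on the opposite strand. The POSTN match at -29, on the strand of the gene, lies past the end of the run shown. A match is a run of letters and is no evidence that a factor was bound there.

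The 10 genes held 1.21% to 1.3% of all counts in untreated cells and 6.29% to 6.69% at week 1. FN1 made up most of this, with 0.722% to 0.827% of counts in untreated cells and 4.86% to 5.25% at week 1. Off drug the share of the 10 genes was 3.22% to 3.62% at week 2 and 2.66% to 3.18% at week 4, above that of untreated cells in every library. A change in RNA per cell and a change in the number of cells that express a gene cannot be told apart in such libraries.

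**Figure D1:**
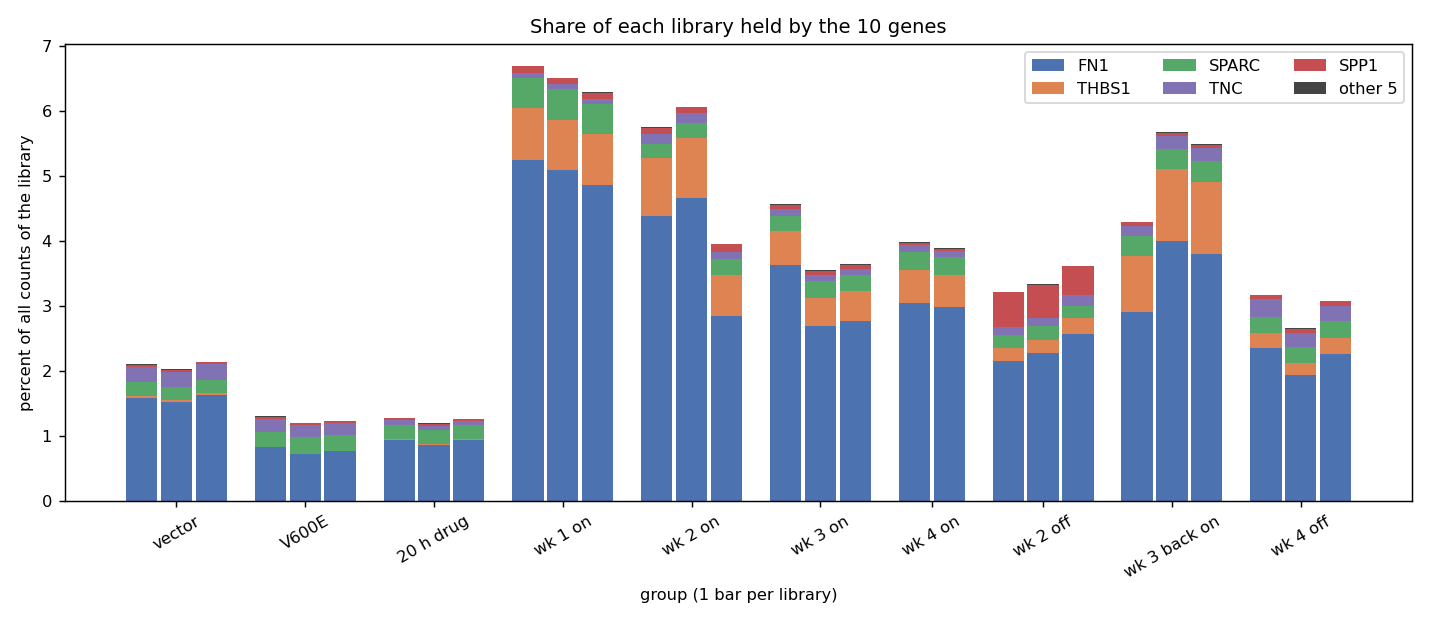
Stacked bars give the percent of all counts (y axis) held by FN1, THBS1, SPARC, TNC, SPP1 and the other 5 genes in each of the 29 libraries (x axis, grouped by condition). The shares at week 1 are the highest, up to 6.69%, and those of untreated and 20 h cells the lowest, down to 1.2%.

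Levels between genes were compared as CPM per kilobase of annotated exon. On that scale FN1 was the highest of the 10 in 8 of 10 groups, at 3027 ± 118 CPM per kilobase (SD, n = 3) at week 1. SPARC was highest in untreated cells, at 493 ± 22.3 against 443 ± 28.7 for FN1 (CPM per kilobase). SPP1 was highest at week 2 off drug, at 2335 CPM per kilobase against 1475 ± 135 for FN1. THBS2, TGFBI, LUM and POSTN were the lowest 4 in every group but untreated cells, where NOV (5.47 ± 0.356 CPM per kilobase) was below POSTN (9.14 ± 0.424).

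**Figure D2:**
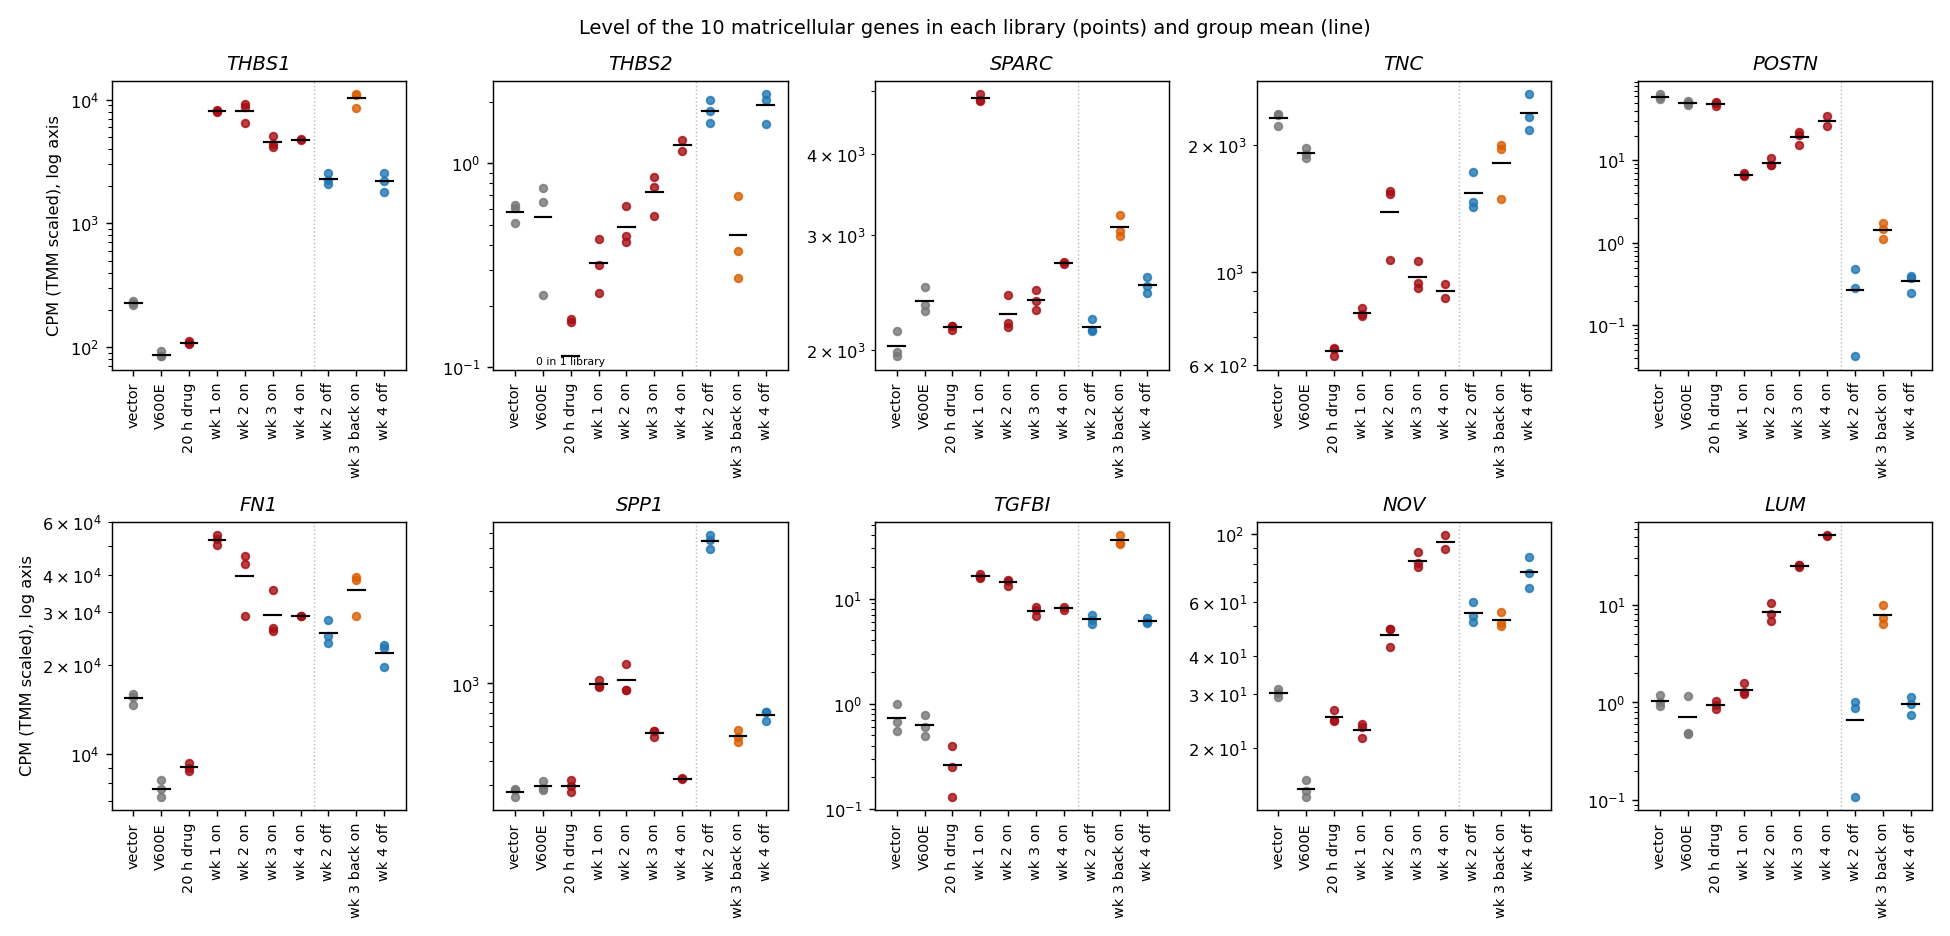
Each panel gives 1 gene, with its TMM-scaled CPM on a log y axis and the 10 groups on the x axis; points are libraries and lines are group means. THBS1, FN1 and TGFBI are high on drug from week 1, POSTN is lowest off drug, SPP1 peaks at week 2 off drug, and LUM climbs to 51.3 CPM along the continuous arm.

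Fibronectin assembles into fibrils that integrins grip, and its gene FN1 (ENSG00000115414, chromosome 2, 215360440 to 215436172, minus strand; positions here are those of GENCODE 29 on GRCh38) had its highest level at week 1. Levels were 15560, 14660 and 15950 CPM in vector cells and 8184, 7191 and 7638 in untreated BRAF-V600E cells. After 20 h on drug they were 9005, 8764 and 9347 CPM, and at week 1 they were 54360, 52580 and 50280. All week 1 libraries lay above all others of the study.

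FN1 was thus 2.01-fold lower in BRAF-V600E than in vector cells (log2 -1.005 ± 0.126 SE, adjusted p = 4.35e-07, edgeR's quasi-likelihood test). It was 6.83-fold higher at week 1 than in untreated cells (log2 2.77 ± 0.13, adjusted p = 1.82e-17). At 20 h the change was not called (log2 0.24 ± 0.13, 95% interval -0.01 to 0.48), though it passed with the compared groups fitted alone (0.18, adjusted p = 0.0236) and without the filter on low counts (0.20, adjusted p = 0.00688).

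Along the continuous arm FN1 came down. Libraries held 43450, 46100 and 29010 CPM at week 2, then 35430, 25950 and 26460 at week 3, and 29040 and 28970 at week 4. Replicate 3 of week 2 on continuous drug lay far below the other libraries of its group and within the range of week 3. The fall from week 1 to week 2 (log2 -0.41 ± 0.13, adjusted p = 0.0133) was -0.24 without that library in a fit that kept the other stand-apart library (adjusted p = 0.0927) and also -0.24 without both (adjusted p = 0.0401). The fall from week 2 to week 3 (log2 -0.43 ± 0.13, adjusted p = 0.0118) was not called when any 1 of 4 libraries was left out, with adjusted p of 0.0705 and 0.0984 without replicates 1 and 2 of week 2, and of 0.0736 and 0.0655 without replicates 2 and 3 of week 3. Without the stand-apart libraries it was -0.62 (adjusted p = 4.01e-06). With the compared groups fitted alone, neither fall was called (adjusted p = 0.0705 to week 2 and 0.15 to week 3). No change from week 3 to week 4 was called (log2 -0.01, 95% interval -0.29 to 0.26).

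In the intermittent arm FN1 stood at 23600, 24880 and 28140 CPM in week 2 without drug, at 29040, 39340 and 38260 in week 3 with drug restored, and at 23300, 19640 and 22730 in week 4 without drug. All off-drug libraries were above the untreated ones, where the level at week 2 off drug was 3.33-fold that of untreated cells (log2 1.74 ± 0.13, adjusted p = 5.78e-13). From week 1 to week 2 off drug FN1 fell 2.05-fold (log2 -1.04 ± 0.13, adjusted p = 3.33e-08), and it also fell with drug kept on, as given above. Against continuous drug of the same week, FN1 off drug was 1.55-fold lower at week 2 (log2 -0.63 ± 0.125, adjusted p = 8.47e-05; -0.825 without the stand-apart libraries). At week 4 FN1 was 1.325-fold lower off drug (log2 -0.41 ± 0.14, adjusted p = 0.0151), a call lost in some alternatives, as given below. Rechallenge raised it 1.39-fold (log2 0.48 ± 0.13, adjusted p = 0.00175; 0.63 without the stand-apart libraries), and the second withdrawal lowered it 1.62-fold (log2 -0.70 ± 0.13, adjusted p = 2.82e-05).

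Thrombospondin-1, encoded by THBS1 (ENSG00000137801, chromosome 15, 39581079 to 39599466, plus strand), is a trimeric glycoprotein that binds CD36 and CD47, inhibits angiogenesis and activates latent TGF-beta. Levels were 228, 219 and 236 CPM in vector cells, 92.3, 84.9 and 84.1 in untreated BRAF-V600E cells, and 111, 106 and 108 at 20 h. At week 1 they were 8226, 7884 and 8109 CPM. No week 1 library came near the range of the earlier groups.

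THBS1 was 92.7-fold higher at week 1 than in untreated cells (log2 6.53 ± 0.14, adjusted p = 8.12e-26). Of all tested genes, 99.1% had a smaller change in size in that comparison. At 20 h the difference was 1.25-fold (log2 0.32 ± 0.12, adjusted p = 0.022), with libraries that did not overlap. That early call was lost without replicate 2 or 3 of untreated cells (adjusted p = 0.104 and 0.112) or replicate 1 of the 20 h cells (adjusted p = 0.0904). BRAF-V600E cells were 2.61-fold below vector cells (log2 -1.39 ± 0.12, adjusted p = 1.8e-10).

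On continuous drug THBS1 held 8755, 9180 and 6431 CPM at week 2, then 5035, 4173 and 4378 at week 3, and 4831 and 4669 at week 4. Week 2 overlapped week 1, and replicate 3 of week 2 was the lowest of the group. The fall from week 2 to week 3 was 1.79-fold (log2 -0.84 ± 0.11, adjusted p = 1.37e-06). At week 4 the gene was still 54.5-fold above untreated cells (log2 5.77 ± 0.14, adjusted p = 1.56e-24).

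Off drug at week 2 the 3 libraries held 2090, 2218 and 2573 CPM, and off drug at week 4 they held 2207, 1798 and 2548. Back on drug at week 3 they held 8573, 10960 and 11050 CPM. Replicates 2 and 3 were the highest of the study, and replicate 1 lay within the range of week 2 on continuous drug. The first withdrawal lowered THBS1 3.52-fold (log2 -1.81 ± 0.12, adjusted p = 2.63e-14), rechallenge raised it 4.44-fold (log2 2.15 ± 0.12, adjusted p = 6.38e-16), and the second withdrawal lowered it 4.67-fold (log2 -2.22 ± 0.12, adjusted p = 4.07e-16). The off-drug level at week 2 remained 26.3-fold that of untreated cells (log2 4.72 ± 0.13, adjusted p = 4.25e-23), and the off-drug levels of weeks 2 and 4 did not differ beyond their spread (log2 -0.07, 95% interval -0.29 to 0.15).

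THBS1 overlaps exons of FSIP1 and of AC037198.2 on the opposite strand, and whether counting used strand is not given in the sources used here. Over all libraries these held 882 and 2655 counts against 3506818 for THBS1. Reads of THBS1 and of these partners cannot be told apart without strand. The same holds for SPARC and CLMAT3 (2249300 and 461 counts) and for TNC and DEC1 (1245559 and 269), whose exons overlap on opposite strands.

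Thrombospondin-2, encoded by THBS2 (ENSG00000186340, chromosome 6, 169215780 to 169254044, minus strand), is a close relative that binds CD36 but does not activate TGF-beta. It was near the limit of detection, with 8 to 175 counts per group. Libraries held 0.512, 0.601 and 0.628 CPM in vector cells and 0.76, 0.648 and 0.227 in untreated cells, then 0.167, 0.172 and 0 at 20 h and 0.424, 0.317 and 0.23 at week 1. The fall at 20 h was 4.78-fold (log2 -2.26 ± 0.55, adjusted p = 0.000938; -1.66 without replicate 3 of the 20 h cells, the library at 0), and the difference at week 1 was not called (log2 -0.76 ± 0.43, 95% interval -1.61 to 0.09), though it was without replicate 3 of untreated cells (-1.11, adjusted p = 0.0305).

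In the intermittent arm THBS2 was high where THBS1 was low. Off drug THBS2 held 1.8, 2.04 and 1.57 CPM at week 2 and 2.18, 1.55 and 2.04 at week 4, and back on drug it held 0.372, 0.275 and 0.689. The first withdrawal raised it 5.57-fold (log2 2.48 ± 0.38, adjusted p = 2.03e-06), rechallenge lowered it 4.05-fold (log2 -2.02 ± 0.36, adjusted p = 1.89e-05) and the second withdrawal raised it 4.31-fold (log2 2.11 ± 0.36, adjusted p = 1.16e-05), so that each of the 3 steps had the opposite direction from THBS1. On continuous drug it held 0.618, 0.44 and 0.411 CPM at week 2, then 0.857, 0.761 and 0.553, and 1.29 and 1.15 at week 4. Its level at week 4 was 2.23-fold that of untreated cells (log2 1.16 ± 0.40, adjusted p = 0.0141), a call lost without replicate 3 of untreated cells (0.78, adjusted p = 0.102) or replicate 1 of week 4 (adjusted p = 0.084). The antisense gene BX322234.1 overlaps THBS2 outside its exons and held more counts, 1561 against 676 over all libraries. Whether the 2 genes shared reads was not tested. With so few counts, THBS2 levels are uncertain.

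The TGF-beta-induced protein, encoded by TGFBI (ENSG00000120708, chromosome 5, 136028895 to 136063818, plus strand), is a fasciclin-domain adhesion protein that binds integrins and collagen. It was all but silent before drug, with 0.544, 0.99 and 0.67 CPM in vector cells and 0.6, 0.778 and 0.492 in untreated cells. At 20 h it held 0.251, 0.129 and 0.395 CPM, and at week 1 it held 15.7, 16 and 17. TGFBI fell 2.38-fold at 20 h (log2 -1.25 ± 0.34, adjusted p = 0.00222) and was 25.6-fold above untreated cells at week 1 (log2 4.68 ± 0.17, adjusted p = 2.35e-20). The fall at 20 h rests on few counts, 15, 24 and 13 in untreated cells and 6, 3 and 10 at 20 h. Over the alternatives other than the 2-fold test it ran from log2 -1.701 to -0.945.

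On continuous drug TGFBI held 15, 14.7 and 13.2 CPM at week 2, 6.78, 7.78 and 8.3 at week 3, and 8.38 and 7.86 at week 4. Off drug it held 7, 6.22 and 5.75 CPM at week 2 and 5.86, 5.95 and 6.47 at week 4, and back on drug 40.3, 33.9 and 33.3. The rechallenged libraries were the highest of the study, 4.69-fold above week 3 on continuous drug (log2 2.23 ± 0.12, adjusted p = 4.75e-15) and 5.68-fold above the preceding week off drug (log2 2.51 ± 0.12, adjusted p = 5.2e-17). The second withdrawal lowered TGFBI 5.88-fold (log2 -2.56 ± 0.12, adjusted p = 3.79e-17).

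SPARC (ENSG00000113140, chromosome 5, 151661096 to 151687165, minus strand) encodes osteonectin, a collagen-binding glycoprotein that limits cell spreading. Like FN1 it was abundant in every group, but it moved little outside week 1. Libraries held 2140, 1953 and 1982 CPM in vector cells, 2297, 2502 and 2341 in untreated cells, 2179, 2173 and 2144 at 20 h, and 4835, 4949 and 4844 at week 1. At week 1 SPARC was 2.05-fold above untreated cells (log2 1.03 ± 0.06, adjusted p = 7.7e-16).

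The rise was gone at week 2 whether or not drug was kept. On continuous drug SPARC held 2168, 2201 and 2432 CPM at week 2, 2306, 2474 and 2378 at week 3, and 2729 and 2714 at week 4. In the intermittent arm it held 2144, 2228 and 2136 CPM off drug at week 2, 3049, 2993 and 3226 back on drug, and 2449, 2507 and 2586 off drug at week 4. From week 1 it fell 2.15-fold on drug (log2 -1.10 ± 0.06, adjusted p = 3.91e-15) and 2.25-fold off drug (log2 -1.17 ± 0.06, adjusted p = 5.18e-17), and the 2 week 2 groups did not differ beyond their spread (log2 -0.06, 95% interval -0.18 to 0.05). Rechallenge raised it 1.42-fold (log2 0.51 ± 0.06, adjusted p = 7.13e-09).

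The differences of SPARC from untreated cells at 20 h (log2 -0.14, adjusted p = 0.0459) and at week 2 off drug (log2 -0.13, adjusted p = 0.0456) were close to the threshold. The first was lost without replicate 2 of untreated cells (adjusted p = 0.0803) or replicate 2 or 3 of the 20 h cells (0.0784 and 0.104), without the filter (0.0733) and with the replicate number as a block (0.0523). The second was lost under RLE factors (adjusted p = 0.198), DESeq2 (0.127), no filter (0.21), the replicate block (0.0515), the compared groups alone (0.0724), and without replicate 2 or 3 of untreated cells (0.218 and 0.0628) or replicate 1 of week 2 off drug (0.113).

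Tenascin-C, encoded by TNC (ENSG00000041982, chromosome 9, 115019578 to 115118257, minus strand), is a large oligomeric glycoprotein that counteracts cell spreading on fibronectin. It was high in cells without drug and lowest in the first week on it. Libraries held 2362, 2228 and 2375 CPM in vector cells, 1973, 1865 and 1907 in untreated cells, 653, 628 and 657 at 20 h, and 818, 793 and 785 at week 1. TNC fell 2.96-fold at 20 h (log2 -1.57 ± 0.11, adjusted p = 2.74e-13) and was 2.4-fold below untreated cells at week 1 (log2 -1.26 ± 0.11, adjusted p = 2.73e-11), while FN1 was higher.

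On continuous drug TNC held 1529, 1557 and 1068 CPM at week 2, 1059, 937 and 916 at week 3, and 935 and 864 at week 4. Replicate 3 of week 2 on continuous drug again lay lowest. TNC rose from week 1 to week 2 (log2 0.80 ± 0.11, adjusted p = 1.08e-06; 0.94 without the stand-apart libraries) and fell from week 2 to week 3 (log2 -0.51 ± 0.11, adjusted p = 0.000729; -0.67 without them). At week 4 it was 2.13-fold below untreated cells (log2 -1.09 ± 0.13, adjusted p = 9.63e-09).

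In the intermittent arm TNC held 1428, 1463 and 1723 CPM off drug at week 2, 1486, 1960 and 1997 back on drug, and 2646, 2168 and 2335 off drug at week 4. TNC was higher after each withdrawal than in the group before, 1.93-fold (log2 0.95 ± 0.11, adjusted p = 1.26e-08) and 1.31-fold (log2 0.39 ± 0.11, adjusted p = 0.00355). It also rose from week 1 to week 2 on continuous drug (log2 0.80 ± 0.11). Against continuous drug, no difference was called off drug at week 2 (log2 0.15 ± 0.11, adjusted p = 0.247; -0.02 without the stand-apart libraries). Off drug at week 4 TNC was 2.65-fold above continuous drug (log2 1.405 ± 0.127, adjusted p = 9.34e-11). The change on rechallenge was not called (log2 0.24 ± 0.11, adjusted p = 0.0618), but was without replicate 1 of week 3 back on drug (0.37, adjusted p = 0.00536), without replicate 3 of week 2 off drug (0.35, adjusted p = 0.0156), without both stand-apart libraries (0.39, adjusted p = 6.04e-05) and without the filter (0.24, adjusted p = 0.00579). Rechallenged cells had 1.87-fold more TNC than cells on continuous drug at week 3 (log2 0.90 ± 0.11, adjusted p = 1.12e-07).

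Periostin, encoded by POSTN (ENSG00000133110, chromosome 13, 37562583 to 37598844, minus strand), is a fasciclin-domain protein related to TGFBI that binds tenascin-C and collagen. It was highest in cells that never had drug or had it for 20 h. Libraries held 58.5, 55.2 and 63.7 CPM in vector cells, 52, 50.4 and 47.4 in untreated cells, 49.9, 50.7 and 45.6 at 20 h, and 7.05, 6.41 and 6.71 at week 1. POSTN was thus 7.44-fold below untreated cells at week 1 (log2 -2.90 ± 0.15, adjusted p = 4.66e-17), with no change called at 20 h (log2 -0.04, 95% interval -0.29 to 0.21).

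On continuous drug POSTN came back step by step, with 8.69, 8.84 and 10.8 CPM at week 2, 22.3, 15.4 and 20.6 at week 3, and 26.2 and 34.3 at week 4. It rose 2.05-fold from week 2 to week 3 (log2 1.04 ± 0.14, adjusted p = 1.67e-06). The smaller step before it (log2 0.49 ± 0.15, adjusted p = 0.0143) was lost without replicate 3 of week 2 (0.37, adjusted p = 0.0807), without both stand-apart libraries (adjusted p = 0.067) or without replicate 2 of week 1 (adjusted p = 0.0596). The step after it (log2 0.64 ± 0.15, adjusted p = 0.00533) was lost without replicate 2 of week 4 (0.45, adjusted p = 0.239).

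Removing drug did not bring POSTN back. Off drug libraries held 0.0419, 0.286 and 0.488 CPM at week 2, 23 counts over the group, and 0.375, 0.248 and 0.4 at week 4, 31 counts over the group. Back on drug they held 1.74, 1.46 and 1.12 CPM. The off-drug level at week 2 was 173-fold below that of untreated cells (log2 -7.43 ± 0.23, adjusted p = 3.71e-22) and 23.2-fold below that of week 1 (log2 -4.54 ± 0.27, adjusted p = 4.27e-15), and POSTN rose 5.01-fold on rechallenge (log2 2.32 ± 0.35, adjusted p = 1.25e-06). The 3 libraries of week 2 off drug held 1, 8 and 14 counts of POSTN, and without replicate 3 these log2 changes were -8.18, -5.26 and 3.04. At week 4 the intermittent arm was 88.1-fold below the continuous arm (log2 -6.46 ± 0.23, adjusted p = 2.49e-20).

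Osteopontin, encoded by SPP1 (ENSG00000118785, chromosome 4, 87975650 to 87983426, plus strand), is a phosphoprotein that binds CD44 and integrins that contain the alpha V chain. Libraries held 286, 259 and 283 CPM in vector cells, 288, 312 and 283 in untreated cells and 295, 317 and 275 at 20 h. These 3 groups overlapped. At week 1 they held 1044, 974.5 and 963.9 CPM, 3.38-fold above untreated cells (log2 1.75 ± 0.09, adjusted p = 2.62e-16).

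The highest level came after drug was first removed, with 5850, 5493 and 4916 CPM at week 2 off drug. On continuous drug SPP1 held 926, 921 and 1262 CPM at week 2, 528, 567 and 569 at week 3, and 320 and 325 at week 4, when no difference from untreated cells was called (log2 0.13, 95% interval -0.07 to 0.33; adjusted p = 0.0444 with the compared groups alone). Back on drug at week 3 it held 577, 529 and 496 CPM, and off drug at week 4 it held 637, 712 and 709. The peak did not come a second time.

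SPP1 rose 5.45-fold at the first withdrawal (log2 2.45 ± 0.10, adjusted p = 1.52e-19), fell 10.2-fold on rechallenge (log2 -3.34 ± 0.10, adjusted p = 2.44e-22) and rose 1.28-fold at the second withdrawal (log2 0.36 ± 0.09, adjusted p = 0.0016). The second off-drug level was 7.9-fold below the first (log2 -2.98 ± 0.10, adjusted p = 1.2e-19). Of all tested genes, 99% had a smaller change in size in that last comparison.

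NOV, also known as CCN3 (ENSG00000136999, chromosome 8, 119416306 to 119424353, plus strand), encodes a CCN family protein, related to CYR61 and CTGF, that is known to restrain proliferation. Libraries held 30.3, 31.1 and 29.4 CPM in vector cells, 13.8, 14.4 and 15.7 in untreated cells, 24.8, 24.6 and 26.5 at 20 h, and 23.4, 21.6 and 23.9 at week 1. It was 2.07-fold lower in BRAF-V600E than in vector cells (log2 -1.05 ± 0.09, adjusted p = 2.46e-10) and rose 1.73-fold within 20 h of drug (log2 0.79 ± 0.09, adjusted p = 1.1e-08).

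NOV then climbed in both arms. On continuous drug it held 48.9, 42.8 and 49.1 CPM at week 2, 78.2, 87.2 and 80.6 at week 3, and 99.6 and 89.5 at week 4, 6.46-fold above untreated cells (log2 2.69 ± 0.10, adjusted p = 1.12e-20). In the intermittent arm it held 60.2, 54.2 and 51.5 CPM off drug at week 2, 50.1, 51.1 and 55.9 back on drug, and 74.7, 84.4 and 66.5 off drug at week 4. It was higher after each withdrawal than in the group before, 2.41-fold (log2 1.27 ± 0.09, adjusted p = 1.02e-13) and 1.44-fold (log2 0.52 ± 0.08, adjusted p = 4.35e-06). No change was called on rechallenge (log2 -0.08, 95% interval -0.24 to 0.09). On continuous drug NOV also rose from week 1 to week 2, by 2.05-fold (log2 1.03 ± 0.09, adjusted p = 8.44e-11). Against continuous drug, cells off drug were 1.18-fold higher at week 2 (log2 0.24 ± 0.08, adjusted p = 0.0172) and 1.26-fold lower at week 4 (log2 -0.33 ± 0.09, adjusted p = 0.00292). Both of these calls were lost in some of the alternatives, as given below. At week 3 the rechallenged cells were 1.57-fold below the continuous arm (log2 -0.65 ± 0.08, adjusted p = 2.81e-07).

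Lumican, encoded by LUM (ENSG00000139329, chromosome 12, 91102629 to 91111831, minus strand), is a small leucine-rich proteoglycan that organises collagen fibrils. Libraries held 1.18, 0.919 and 1.01 CPM in vector cells, 0.48, 1.17 and 0.492 in untreated cells, 1.05, 0.862 and 0.949 at 20 h, and 1.27, 1.21 and 1.58 at week 1. The difference at week 1 (log2 0.87 ± 0.36, adjusted p = 0.0378) was lost without replicate 1 or 3 of untreated cells (adjusted p = 0.142 and 0.15) or replicate 1 or 3 of week 1 (0.0577 and 0.116), and was 1.48 without replicate 2 of untreated cells.

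From there LUM rose at every step on continuous drug, with 6.83, 8.06 and 10.4 CPM at week 2, 25.3, 24.3 and 25.8 at week 3, and 50.5 and 52.1 at week 4. The groups did not overlap, and the steps were 6.23-fold (log2 2.64 ± 0.25, adjusted p = 1.31e-09), 2.97-fold (log2 1.57 ± 0.20, adjusted p = 3.65e-07) and 2.04-fold (log2 1.03 ± 0.20, adjusted p = 0.00119). At week 4 LUM was 69.3-fold above untreated cells (log2 6.11 ± 0.28, adjusted p = 4.1e-18).

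Off drug LUM held 0.88, 0.107 and 1.01 CPM at week 2 and 0.75, 1.15 and 0.967 at week 4, all near or below the levels of cells that never had drug. Back on drug it held 6.39, 9.91 and 7.32 CPM, 11.9-fold above week 2 off drug (log2 3.57 ± 0.29, adjusted p = 6.83e-12) and 3.19-fold below week 3 on continuous drug (log2 -1.67 ± 0.20, adjusted p = 5.83e-08). The second withdrawal lowered it 8.18-fold (log2 -3.03 ± 0.27, adjusted p = 4.7e-11). At week 4 the intermittent arm was 53.2-fold below the continuous arm (log2 -5.73 ± 0.26, adjusted p = 1.07e-17).

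Fibroblast markers moved with the drug groups too, and their part in the changes of LUM, POSTN and FN1 was not tested. The summed level of 10 such markers was 174 to 178 CPM in untreated cells, 420 to 427 at week 1, 1213 to 1272, 1824 to 1923 and 2415 to 2664 at weeks 2, 3 and 4 on continuous drug, 780 to 899 back on drug, and 180 to 226 off drug. COL1A1 made most of the rise, from 0.778 ± 0.337 CPM (SD, n = 3) in untreated cells to 2179 ± 171 (n = 2) at week 4 on continuous drug. Against untreated cells, 8 of the 10 were higher and 0 lower at week 4 on continuous drug. Of all genes 55.3% were called there (29.3% higher and 26% lower). The median log2 change of the 10 markers was 5.25, against 0.03 for all genes. THY1 had 0 counts at week 1 and a group mean of at most 0.973 CPM. DCN stayed under 1 CPM in every group but week 4 on continuous drug, where it was at 1.63 CPM. The 5 endothelial markers summed to 8.31 to 10.05 CPM in vector cells and 8.82 to 10.92 CPM in untreated cells. Their sum was 1.1 to 1.45 CPM at week 1, and 18.1 to 20.9 and 28.1 to 30.2 CPM off drug at weeks 2 and 4. The 6 leukocyte markers summed to 1.66 to 2.43 CPM in vector cells and 1.92 to 3.015 CPM in untreated cells. Their sum was 0.165 to 0.721 CPM at week 1, and 5.11 to 5.78 and 8.74 to 12 CPM in the same off-drug groups. The part of both in the off-drug changes was not tested, and the 6 epithelial markers summed to 16.6 to 144 CPM over all groups.

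Across the comparisons the 10 genes were read against the share of all tested genes. Between BRAF-V600E and vector cells 1 of 10 was higher (SPARC) and 3 lower (THBS1, FN1 and NOV), where 17% of all genes were called (7.04% higher and 9.92% lower). At 20 h 2 were higher (THBS1 and NOV) and 4 lower (THBS2, SPARC, TNC and TGFBI), where 53.7% of genes were called (28.4% higher and 25.2% lower), a share near that of the members. At week 1 against untreated cells 7 were higher and 2 lower, with THBS2 not called, where 54.2% of genes were called (27.5% higher and 26.7% lower). The median log2 change of the 10 was 0.95 at week 1, against 0 for all tested genes. From 20 h to week 1, 7 were higher and 1, POSTN, was lower, against 57.7% of genes (28.6% higher and 29.1% lower). Of these, THBS2 (log2 1.495, adjusted p = 0.0329) was lost without replicate 3 of the 20 h cells (0.90, adjusted p = 0.191) or replicate 1 or 2 of week 1 (0.0923 and 0.0591), and TNC (log2 0.31, adjusted p = 0.0171) without replicate 2 of the 20 h cells (0.0557). Over the same interval THBS1 rose by log2 6.22 ± 0.14 (adjusted p = 1.64e-25) and TGFBI by 5.93 ± 0.21 (adjusted p = 4.48e-21).

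**Figure D3:**
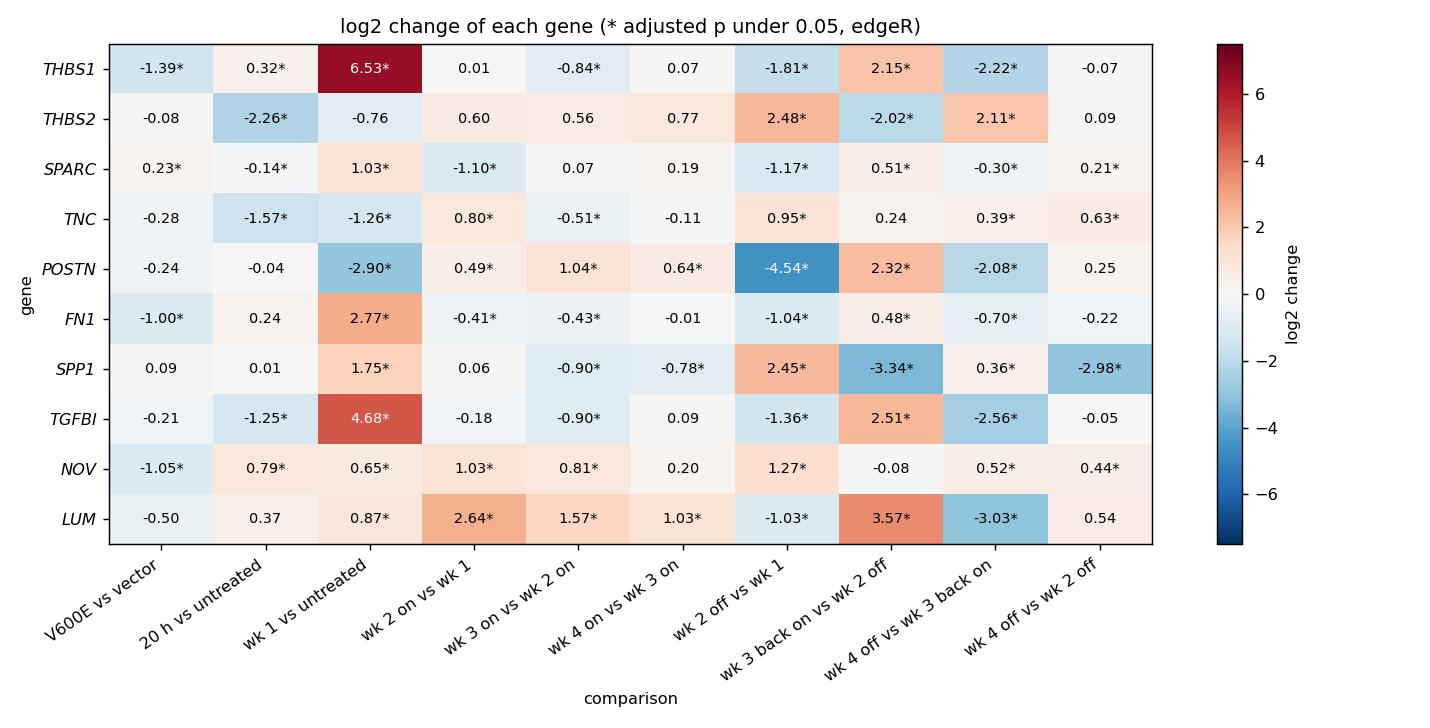
Cells give the log2 change of each of the 10 genes (y axis) in 10 comparisons (x axis), with red for higher and blue for lower, and a star where edgeR's adjusted p was under 0.05. THBS1 at week 1 (6.53) is the largest rise and POSTN at the first withdrawal (-4.54) the largest fall among those shown.

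Within the continuous arm 4 rose (TNC, POSTN, NOV and LUM) and 2 fell (SPARC and FN1) from week 1 to week 2, where 29.5% of genes were called (16% higher and 13.5% lower). Without the stand-apart libraries 3 rose and 2 fell. From week 2 to week 3, 3 rose (POSTN, NOV and LUM) and 5 fell (THBS1, TNC, FN1, SPP1 and TGFBI), where 21.3% of genes were called (10.5% higher and 10.8% lower). From week 3 to week 4, 2 rose (POSTN and LUM) and 1 fell (SPP1), where 6.93% of genes were called (3.44% higher and 3.49% lower). At week 4, 7 were above untreated cells (THBS1, THBS2, SPARC, FN1, TGFBI, NOV and LUM) and 2 below (TNC and POSTN), where 55.3% of genes were called (29.3% higher and 26% lower). Of these, SPARC (log2 0.19, adjusted p = 0.011) was lost without replicate 1 or 3 of untreated cells (adjusted p = 0.0614 and 0.0514) or replicate 1 of week 4 (0.0682), and THBS2 as given above.

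Within the intermittent arm all 10 passed the test at the first withdrawal, 4 higher (THBS2, TNC, SPP1 and NOV) and 6 lower, where 54.5% of genes were called (27.7% higher and 26.8% lower). LUM among them (log2 -1.03 ± 0.37, adjusted p = 0.0175) was lost without replicate 2 of week 2 off drug (-0.54, adjusted p = 0.144), without replicate 3 of week 1 (adjusted p = 0.0655) and with the compared groups alone (0.0609). On rechallenge 6 rose (THBS1, SPARC, POSTN, FN1, TGFBI and LUM) and 2 fell (THBS2 and SPP1), where 56.3% of genes were called (27.8% higher and 28.5% lower). At the second withdrawal all 10 again passed, with the same 4 higher and the same 6 lower as at the first, where 45.5% of genes were called (23.1% higher and 22.3% lower). Each of these steps shares a group with the next, so they are not independent of one another. Each step also holds a week of time. From week 1 to week 2 with drug kept on, SPARC and FN1 also fell and TNC and NOV also rose. Against continuous drug at week 2, no difference of SPARC or TNC was called. Between the 2 off-drug groups 3 were higher at week 4 (SPARC, TNC and NOV) and 1, SPP1, was lower, where 29% of genes were called (14.6% higher and 14.4% lower).

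Set against continuous drug of the same week, cells off drug at week 2 had 3 members higher (THBS2, SPP1 and NOV) and 5 lower (THBS1, POSTN, FN1, TGFBI and LUM), where 55.2% of genes were called (27.3% higher and 27.9% lower). NOV (log2 0.24, adjusted p = 0.0172) was lost without replicate 1 of week 2 off drug (adjusted p = 0.114), without replicate 2 of week 2 on drug (0.1) and with the compared groups alone (0.0679). At week 3 rechallenged cells had 4 higher (THBS1, SPARC, TNC and TGFBI) and 3 lower (POSTN, NOV and LUM), where 28.4% of genes were called (14% higher and 14.3% lower). FN1 joined the higher ones without the stand-apart libraries (log2 0.42 against 0.28, adjusted p = 0.000546 against 0.0969), as it did without replicate 1 of week 3 on continuous drug (0.45, adjusted p = 0.0124) and without the filter (adjusted p = 0.000194). At week 4 cells off drug had 2 higher (TNC and SPP1) and 6 lower, where 51.2% of genes were called (26.1% higher and 25.1% lower). Of those 6, the calls of FN1, TGFBI and NOV were lost without replicate 1 of week 4 on continuous drug (adjusted p = 0.0663, 0.112 and 0.0848), which leaves that group with 1 library that is assumed to vary like the others. FN1 was also lost without replicate 2 of either group (0.0637 on drug and 0.117 off drug), TGFBI without replicate 1 or 2 off drug (0.0711 and 0.0637), and NOV without replicate 3 off drug (0.0684).

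Cells off drug at week 2 still differed from untreated cells in 9 of the 10 genes, 6 higher (THBS1, THBS2, FN1, SPP1, TGFBI and NOV) and 3 lower (SPARC, TNC and POSTN), where 60% of genes were called (31.2% higher and 28.8% lower). LUM alone was not called (log2 -0.16, 95% interval -0.97 to 0.66). SPP1 was 18.4-fold higher (log2 4.20 ± 0.10, adjusted p = 2.11e-24) and TGFBI 9.94-fold higher (log2 3.31 ± 0.19, adjusted p = 7.62e-16). TNC (log2 -0.32, adjusted p = 0.0132) was lost without replicate 1 of untreated cells (adjusted p = 0.0541) or replicate 1 of week 2 off drug (0.0686), and SPARC as given above.

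The size of the response to drug was then compared between the first exposure, from untreated cells to week 1, and the rechallenge, from week 2 off drug to week 3. The 2 responses differed for 9 of the 10 genes by a test of the difference itself, where 48.3% of genes were called (23.3% higher and 25% lower). SPP1 changed direction, from log2 1.75 ± 0.09 to -3.34 ± 0.10, and POSTN did so the other way, from -2.90 ± 0.15 to 2.32 ± 0.35. THBS1 rose less the second time, by 2.15 against 6.53, starting from a level that was 26.3-fold higher, and FN1 and TGFBI also rose less. LUM rose more, by 3.57 against 0.87. THBS2 was the exception (difference -1.25 ± 0.58, adjusted p = 0.0726), and it was called without replicate 1 of untreated cells (adjusted p = 0.0371), without replicate 3 of week 3 back on drug (0.0188) and by DESeq2 (0.0413).

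**Figure D4:**
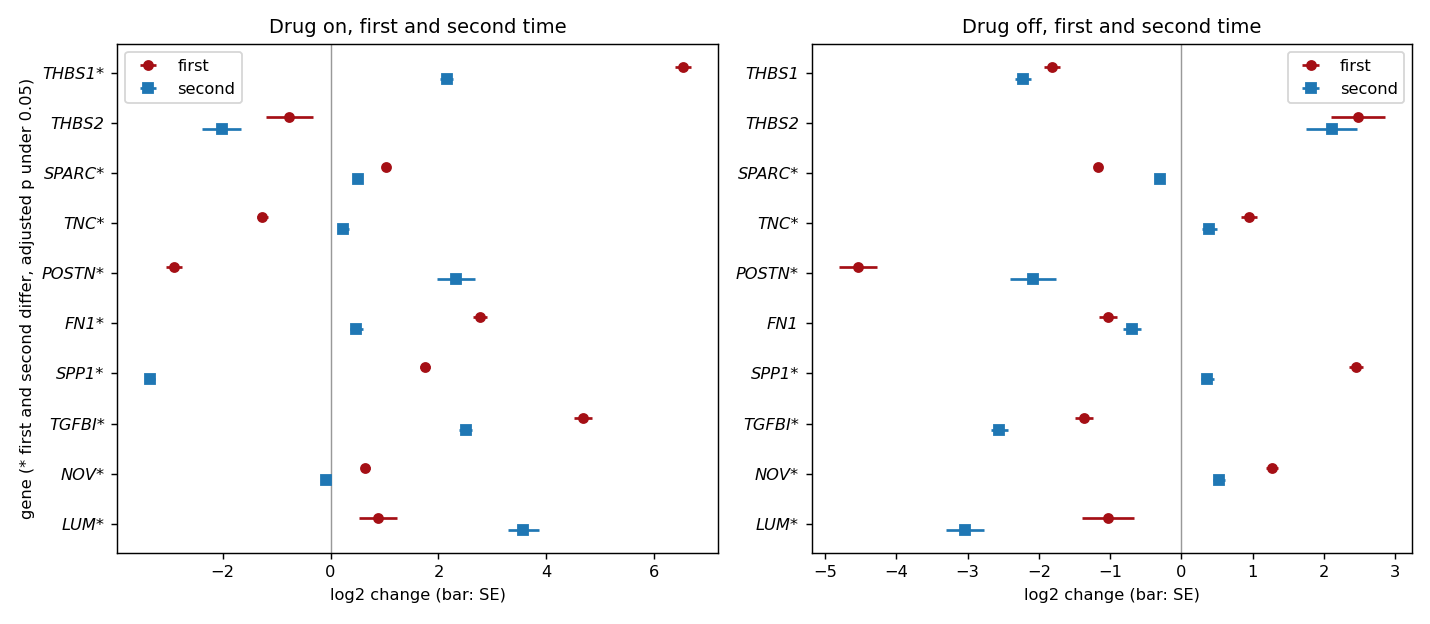
Points give the log2 change (x axis) of each gene (y axis) at the first (red circles) and the second (blue squares) time that drug was given (left panel) or removed (right panel), with SE as bars; a star marks genes whose 2 changes differed at an adjusted p under 0.05. In the left panel SPP1, POSTN, TNC and NOV lie on opposite sides of 0 the first and the second time. The second changes of TNC (0.24) and NOV (-0.08) were not called in the fit of all libraries. In the right panel every gene keeps its side.

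The 2 withdrawals differed for 7 of the 10 genes, where 17.1% of genes were called (7.6% higher and 9.5% lower). SPARC and POSTN fell less at the second withdrawal, SPP1, NOV and TNC rose less, and TGFBI and LUM fell more. The largest of these differences were those of POSTN (2.46 ± 0.52, adjusted p = 0.000903) and SPP1 (-2.08 ± 0.13, adjusted p = 4.34e-13). The first withdrawal also spans the week from week 1 to week 2. With drug kept on over that week, SPARC changed by log2 -1.105, TNC by 0.795 and NOV by 1.034, against -1.168, 0.946 and 1.271 off drug. Unequal withdrawal and time cannot be told apart for these genes. With drug kept on, POSTN and LUM rose and no change of SPP1 or TGFBI was called. TNC (-0.55 ± 0.15, adjusted p = 0.0104) was lost without replicate 3 of week 2 off drug, replicates 2 or 3 of week 3 back on drug or replicate 2 of week 4 off drug (adjusted p = 0.0546, 0.0535, 0.0511 and 0.0507). LUM (-2.00 ± 0.48, adjusted p = 0.00321) was lost without replicate 3 of week 2 off drug (adjusted p = 0.0772). THBS1 was not called (-0.41 ± 0.16, adjusted p = 0.0811) but was without the stand-apart libraries (-0.49, adjusted p = 0.00406), without replicate 1 of week 3 back on drug (adjusted p = 0.025), without replicate 3 of week 4 off drug (0.0306) and without the filter (0.00353).

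Among 40 other matricellular and related matrix genes 29 were tested. At week 1, 17 were higher and 7 lower than in untreated cells, with a median log2 change of 2.24 against 0 for all genes. Of all genes 54.2% were called (27.5% higher and 26.7% lower). Among genes at 5 CPM or more in a compared group, to which the named genes of both lists were limited, the largest rises were those of FBN1, the fibrillin of microfibrils (353 ± 8.91 against 5.42 ± 0.147 CPM), PRELP, a leucine-rich proteoglycan like LUM (12.4 ± 0.534 against 0.198 ± 0.0677 CPM), and BGN, the proteoglycan biglycan (52.8 ± 3.76 against 1.08 ± 0.147 CPM; n = 3). The largest falls among them were those of SMOC2 (log2 -1.84 ± 0.17), LGALS3, a galectin (-1.60 ± 0.10), and the thrombospondin THBS3 (-0.42 ± 0.13, adjusted p = 0.00689).

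At 20 h, 12 of the 29 were higher and 4 lower, with a median of 0.59 against 0.06 for all genes. Of all genes 53.7% were called (28.4% higher and 25.2% lower), in all a share near that of the 29. CYR61 and CTGF, the CCN proteins related to NOV, fell by log2 2.27 ± 0.08 (adjusted p = 3.32e-20) and 2.23 ± 0.09 (adjusted p = 8.01e-20), while NOV rose. From 20 h to week 1 they rose by 6.08 ± 0.09 and 5.41 ± 0.09 on the log2 scale (adjusted p = 1.44e-29 and 1.55e-28). On continuous drug SPOCK1, a proteoglycan of the SPARC family, rose at each step as LUM did, from 0.98 ± 0.236 CPM in untreated cells to 537 ± 14.8 at week 4 (n = 3 and 2; log2 9.10 ± 0.16, adjusted p = 7.57e-28).

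At the first withdrawal 7 of the 29 were higher and 15 lower, with a median of -0.65 against -0.01 for all genes. Of all genes 54.5% were called (27.7% higher and 26.8% lower). The largest falls by the same rule were PRELP (log2 -5.69 ± 0.19), FBN1 (-5.21 ± 0.18) and FSTL1, a follistatin-like relative of SPARC (-4.57 ± 0.11). The largest rise was SMOC1, another relative of SPARC, from 0.0219 ± 0.038 to 37.9 ± 3.78 CPM (adjusted p = 7.17e-22). On rechallenge 17 were higher and 8 lower, where 56.3% of all genes were called (27.8% higher and 28.5% lower). PRELP, FBN1 and FSTL1 were the largest rises (5.97 ± 0.19, 5.51 ± 0.18 and 4.45 ± 0.11) and SMOC1 the largest fall (-6.25 ± 0.22). At the second withdrawal 7 were higher and 15 lower, where 45.5% of all genes were called (23.1% higher and 22.3% lower).

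All 26 receptors, proteases and binding partners were tested. At week 1, 16 were higher and 3 lower, with a median of 0.80 against 0 for all genes. Of all genes 54.2% were called (27.5% higher and 26.7% lower). CD36, the receptor that THBS1 and THBS2 share, rose the most of those at 5 CPM or more, from 1.03 ± 0.148 to 163 ± 4.61 CPM (log2 7.30 ± 0.19, adjusted p = 3.41e-24), followed by MMP2, a gelatinase (28.8 ± 0.536 to 958 ± 51.9 CPM), and LRP1, a receptor that clears thrombospondins (120 ± 9.48 to 912 ± 65.3 CPM). ITGA9 and ITGB3, chains of integrins that bind tenascin-C and osteopontin, fell by 3.63 ± 0.16 and 2.77 ± 0.10 on the log2 scale (adjusted p = 2.58e-18 and 2.55e-20).

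At the first withdrawal 9 were higher and 9 lower, with a median of 0.07 against -0.01 for all genes, of which 54.5% were called (27.7% higher and 26.8% lower). CD36 fell to 0.509 ± 0.243 CPM (log2 -8.31 ± 0.21, adjusted p = 2.45e-24), against 1.03 ± 0.148 CPM in untreated cells. ITGB3 rose from 91.3 ± 3.95 to 552 ± 39.2 CPM (adjusted p = 1.43e-19) in the same week as SPP1. Untreated cells held 622.9 ± 27.05 CPM of ITGB3, so it came back near their level, whereas SPP1 was 18.4-fold above untreated cells. On rechallenge 9 were higher and 11 lower, with a median of 0.09 against 0.02 for all genes, of which 56.3% were called. CD36 then stood at 77.5 ± 19.8 CPM and ITGB3 at 94.5 ± 12.5. ITGB3 also rose at the second withdrawal, to 531 ± 23.1 CPM (log2 2.49 ± 0.10, adjusted p = 6.18e-19), where SPP1 stood at 686 ± 42.5 CPM. Another integrin chain, ITGA8, was found along the continuous arm, from 1.12 ± 0.0987 CPM at week 2 to 14.2 ± 1.41 at week 3 and 23.5 ± 0.647 at week 4, and had 0 counts in untreated cells.

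The pattern of each member over the 10 group means of log2(CPM + 0.5) was set against those of the others and of 11672 genes, as a description over 10 points that share libraries and scaling. THBS1 was closest to TGFBI (Pearson r = 0.973) and FN1 (0.965), and FN1 and TGFBI had 0.921. The lowest value among pairs of members was that of POSTN and SPP1 (-0.754). Of all genes, SBDS and SGMS1 were most like THBS1 (0.987 each), ANXA7 (0.981) and NGFR (0.979) most like FN1, and DGKA and HOXC8 (0.982 each) most like TGFBI. LUM was most like EFEMP1, another matrix gene (0.993), and PSG5 (0.985). TM9SF2 (0.985) and CNNM4 (0.966) were most like SPP1, CFI and COA5 (0.964 each) most like POSTN, and STC1 (0.962) and HTR7 (0.957) most like THBS2. For SPARC the closest were SEC22A (0.916) and ERF (0.899), for TNC RNF168 (0.949) and CHAMP1 (0.945), and for NOV OAS2 (0.96) and GPRC5C (0.95).

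The order of the 10 groups by level differed between members, and 40 of the 90 neighbouring pairs of groups overlapped in their libraries. Of 9 such pairs per gene, 2 overlapped for POSTN, the 2 off-drug groups and the 20 h and untreated cells. For THBS2 6 pairs overlapped, and for SPARC, TNC and LUM 5 each. Under RLE in place of TMM scaling 9 of the 10 orders were the same.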

How the data were processed

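RNA of 29 libraries in 10 groups was extracted together once the course had ended and then sequenced. The authors deposited raw counts per gene. The submitters' processing notes name HTSeq 0.6.1, SAMtools 0.1.18, HISAT2 2.0.3, Trimmomatic 0.32 and the GRCh38 build; annotation release and strand setting are not given in the sources used here. Genes passing edgeR's filter on low counts (20494) were fitted at once over all groups by the quasi-likelihood test of edgeR 4.0.16, run under R 4.3.3 with TMM factors, with Benjamini-Hochberg adjustment over all tested genes within each of 18 comparisons and a threshold of 0.05. Levels are TMM-scaled CPM computed from the counts. The SE of a log2 change was derived from the test, as the size of the change divided by the square root of its F statistic. Intervals are the log2 change with a normal 95% range from that SE, and are approximate. Fits were tested on simulated data.

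Alternatives were DESeq2 1.42.0, RLE factors, no filter, the compared groups alone, a replicate block and leaving out each library. A test against a 2-fold change and a fit without the 2 stand-apart libraries were chosen after seeing the data. The 10 members and the lists of other genes were chosen with earlier results of these data known. From each list up to 3 rises and 3 falls per comparison were named, among genes at 5 CPM or more. Of all other genes at 5 CPM or more in a group, the 2 most alike in pattern were named per member. COL1A1, THY1, DCN and ITGA8, and ITGB3, CYR61 and CTGF beyond those rules, were named after their values were seen.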

Additional observations from a re-analysis of the deposited data

Results flagged for a closer look

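The response to drug differed between the first exposure and the rechallenge, by a test of the difference itself, for 9 of the 10 genes, where 48.3% of all tested genes were called. The second log2 change minus the first was -4.38 ± 0.17 for THBS1 (edgeR's quasi-likelihood test, adjusted p = 2.37e-19), -2.30 ± 0.18 for FN1 (3.62e-12) and -2.17 ± 0.23 for TGFBI (1.96e-09), which rose both times. It was -5.10 ± 0.14 for SPP1 (5.16e-23) and 5.22 ± 0.36 for POSTN (1.79e-13, and 5.96 without replicate 3 of week 2 off drug). In this pair both changes were called and had opposite directions. The second changes of TNC (0.24) and NOV (-0.08) also went against the first but were not called in the fit of all libraries. For SPARC it was -0.53 ± 0.08 (2.73e-06), for TNC 1.501 ± 0.154 (1.43e-09), for NOV -0.72 ± 0.12 (1.11e-05) and for LUM 2.70 ± 0.50 (3.42e-05; 2.09 without replicate 2 of untreated cells).

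The change at withdrawal, from the group before, differed between the first and the second time for 7 of the 10, where 17.1% of all tested genes were called. The difference was 0.87 ± 0.08 for SPARC (adjusted p = 1.85e-09), -0.55 ± 0.15 for TNC (0.0104), 2.46 ± 0.52 for POSTN (0.000903; 3.19 without replicate 3 of week 2 off drug) and -2.08 ± 0.13 for SPP1 (4.34e-13). It was -1.19 ± 0.17 for TGFBI (5.71e-06), -0.75 ± 0.12 for NOV (2.12e-05) and -2.00 ± 0.48 for LUM (0.00321). The TNC and LUM calls were lost without replicate 3 of week 2 off drug (adjusted p = 0.0546 and 0.0772), and that of TNC also without any 1 of 3 other libraries. Both tests use week 1 and the intermittent groups of weeks 2 and 3, so they are not independent. The first withdrawal also spans the week from week 1 to week 2. Over that week SPARC, TNC and NOV moved in the same directions with drug kept on (log2 -1.105, 0.795 and 1.034). Unequal withdrawal and time cannot be told apart for these genes.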

How the results depend on the processing

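No called change of a member reversed under any alternative run. With the compared groups alone, 5 members were lower in BRAF-V600E than vector cells, and 1 fell from week 1 to week 2 on drug. Without the filter, 2 were lower off drug at week 4 than at week 2. Leaving out 1 library each gave 1 to 2 members higher at 20 h, 1 to 2 lower at week 2 than at week 1 on drug, 1 to 2 higher at week 4 than at week 3 on drug, 1 to 3 lower at week 2 off drug than in untreated cells, 3 to 5 lower at week 4 off drug than on, and 3 to 6 negative differences between withdrawals. Tested against a 2-fold change, 0 were higher and 1 lower in BRAF-V600E than vector cells, 0 higher and 2 lower at 20 h, and 4 higher at week 1. On continuous drug 1 rose and 0 fell to week 2, 0 rose and 0 fell to week 3, 0 rose and 0 fell to week 4, and at week 4 0 were below untreated cells. Off drug at week 2, 3 were below continuous drug and 1 below untreated cells. Rechallenged cells had 1 above continuous drug, and 1 rose at the second withdrawal. Off drug at week 4, 1 was above and 2 below continuous drug, and 0 were above week 2 off drug. Of the differences between withdrawals 1 was positive and 1 negative. The replicate numbers do not pair the libraries: 3 of 126 same-numbered pairs correlated over 0.1 and 12 of 29 libraries were closest to their own number. With a replicate block all counts of members stayed within 1.5 times, and 2 calls of SPARC were lost, at 20 h (adjusted p = 0.0523) and at week 2 off drug against untreated cells (0.0515). THBS2, TGFBI before week 1, and POSTN and LUM off drug, rest on few counts.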
